A study of Mus musculus with 18 samples.

Results

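Of 16666 genes listed in both mRNA tables of this study, 10265 had a mean of at least 1 FPKM (fragment counts scaled to gene length and to library depth) in each table, and these genes are described here. For each gene the change after editing Myc was set against the change after editing Nat10. The tables were matched by Ensembl identifier, of which the sgMyc table listed 28738 genes and 17379 were in the sgNAT10 table. The cells were TC1, a mouse tumour line that the labels call fibrosarcoma, grown either unedited (wild type, WT) or with a guide RNA against Nat10 (sgNAT10) or Myc (sgMyc, written sgMYC in the labels). The sgNAT10 set held 2 WT and 2 sgNAT10 libraries, and the sgMyc set held 3 WT and 3 sgMyc libraries. Each set had WT libraries of its own, and the FPKM of the sets were normalized separately. An effect is the mean of log2(FPKM + 1) in the edited libraries minus that in the WT libraries of the same set. The difference is the sgMyc effect minus the sgNAT10 effect, so a difference below 0 means a lower sgMyc effect. Whether an edited line was 1 clone or a pool is not stated, and no library had a control guide. A difference between the edits therefore cannot be told apart from a difference between the sets. Nothing in the labels says that replicates came from separate cultures, so p-values measure the spread between these libraries, which may be technical.

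NAT10 is an enzyme that acetylates cytidines in ribosomal, transfer and messenger RNA and works in the nucleolus, where ribosomes are assembled. MYC is a transcription factor that binds the E-box motif together with MAX and raises genes of ribosome assembly, translation, nucleotide synthesis and glycolysis. Type I interferon acts through the kinases JAK1 and TYK2 on STAT and IRF factors, which bind interferon response elements near antiviral genes, and DNA methyltransferases such as DNMT1 can keep those genes and endogenous repeats silent. The series title places MYC, CDK2 and DNMT1 between NAT10 and the interferon response, which is the question this comparison bears on.

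Replicate 3 of sgMyc stood apart from the other sgMyc libraries, and the labels do not say why. Counts over gene lists are given with and without it, and single genes are given without it where a call in sgMyc changed. Across the 10265 genes its log2(FPKM + 1) correlated with sgMyc replicates 1 and 2 at r = 0.947 for each and with the WT libraries at 0.960 to 0.965, while replicates 1 and 2 correlated at 0.997. Among 521 genes that moved by more than 1 in replicates 1 and 2, 82.7% moved the same way in replicate 3, with a median of 33.0% of their effect. Counts of the sgMyc set summed to 51875052 to 65768024 per library, and reads recovered from the FPKM of the sgNAT10 set summed to 12335289 to 16133476. The 2 WT libraries of the sgNAT10 set differed at p = 0.001 of a chi-square test in 0.777% of genes and the 2 sgNAT10 libraries in 1.48%, where sampling alone gives 0.1%. The same test separated 15.5% to 20.2% of genes between WT libraries of the sgMyc set. Of the 136 genes named below or kept in the tables for naming, 92 passed the test of the difference with all libraries, and all 92 passed it without sgMyc replicate 3. Of the 44 that did not pass, 24 passed in the same direction without it and 3 (Nfe2l2, Phb and Tsr1) in the opposite direction. Passing that test was a condition for naming many of these genes, so the 92 follow in part from the rule. Without replicate 3 the passes over all members rose from 6.78% to 23.2% above 0 and from 14.2% to 36.4% below 0. That all 92 still passed is therefore no check of them.

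Promoters of 7 members are printed first because the results turn on interferon-responsive genes and on ribosome and growth genes. Of 23 interferon-stimulated members 16 rose in sgMyc, while 6 rose and 13 fell in sgNAT10. Among all members 8.11% rose in sgMyc, while 34.7% rose and 30.6% fell in sgNAT10. Among the printed genes Bst2 went opposite ways, and Isg15, Cxcl10 and H2-T22 rose with both edits. The medians of the ribosome biogenesis genes and of the other listed MYC targets were below 0 in 4 of the 5 edited libraries. By calls with all libraries, 1 of 71 and 2 of 49 of them were lower with both edits. Each promoter runs 5′ to 3′ from 250 bases before the start site to 50 after it, from RefSeq on GRCm38.p6, the assembly also called mm10. In the first 4, capitals mark matches to GAAA, 2 bases of any kind and GAAA, or to the reverse complement TTTC, 2 bases and TTTC, which is the repeat of the interferon response element; matches may overlap. In the last 3, capitals mark the E-box CACGTG, which reads the same on both strands. Isg15 lies at chr4:156200769-156201068 (minus strand), Bst2 at chr8:71537423-71537722 (minus strand), Cxcl10 at chr5:92348840-92349139 (minus strand) and H2-T22 at chr17:36042693-36042992 (minus strand). Pes1 lies at chr11:3963725-3964024 (plus strand), Phb at chr11:95666707-95667006 (plus strand) and Tsr1 at chr11:74897830-74898129 (plus strand).
Isg15: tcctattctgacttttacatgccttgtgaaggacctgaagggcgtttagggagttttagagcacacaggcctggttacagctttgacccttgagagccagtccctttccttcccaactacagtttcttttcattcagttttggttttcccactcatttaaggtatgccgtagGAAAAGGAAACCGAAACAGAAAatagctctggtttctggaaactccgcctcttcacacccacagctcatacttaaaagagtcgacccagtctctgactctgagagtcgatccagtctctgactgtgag
Bst2: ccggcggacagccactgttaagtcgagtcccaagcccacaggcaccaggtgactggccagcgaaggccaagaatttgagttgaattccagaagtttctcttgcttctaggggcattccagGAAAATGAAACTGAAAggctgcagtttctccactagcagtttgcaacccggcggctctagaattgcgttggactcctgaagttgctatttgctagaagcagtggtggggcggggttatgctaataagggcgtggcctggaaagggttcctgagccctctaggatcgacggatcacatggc
Cxcl10: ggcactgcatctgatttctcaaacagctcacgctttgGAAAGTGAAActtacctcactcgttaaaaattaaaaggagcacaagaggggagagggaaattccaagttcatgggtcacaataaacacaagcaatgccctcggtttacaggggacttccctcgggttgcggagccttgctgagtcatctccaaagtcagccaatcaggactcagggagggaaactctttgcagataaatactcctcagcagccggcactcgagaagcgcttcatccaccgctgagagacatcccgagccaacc
H2-T22: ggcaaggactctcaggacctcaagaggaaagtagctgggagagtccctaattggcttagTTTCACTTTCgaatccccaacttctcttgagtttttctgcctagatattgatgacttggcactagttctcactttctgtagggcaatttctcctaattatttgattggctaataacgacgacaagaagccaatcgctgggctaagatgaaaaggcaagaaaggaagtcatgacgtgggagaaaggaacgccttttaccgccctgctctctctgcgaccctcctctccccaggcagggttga
Pes1: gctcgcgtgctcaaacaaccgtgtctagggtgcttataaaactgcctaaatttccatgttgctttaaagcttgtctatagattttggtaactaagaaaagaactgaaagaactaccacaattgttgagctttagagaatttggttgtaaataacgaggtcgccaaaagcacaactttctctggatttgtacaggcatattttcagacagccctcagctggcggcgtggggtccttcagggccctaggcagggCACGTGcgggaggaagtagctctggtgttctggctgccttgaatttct
Phb: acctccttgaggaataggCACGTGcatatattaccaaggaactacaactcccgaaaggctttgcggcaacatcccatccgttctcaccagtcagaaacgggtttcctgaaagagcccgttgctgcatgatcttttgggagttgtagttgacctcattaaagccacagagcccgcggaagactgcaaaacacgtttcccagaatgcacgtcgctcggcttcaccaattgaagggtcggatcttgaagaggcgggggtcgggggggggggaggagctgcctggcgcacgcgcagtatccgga
Tsr1: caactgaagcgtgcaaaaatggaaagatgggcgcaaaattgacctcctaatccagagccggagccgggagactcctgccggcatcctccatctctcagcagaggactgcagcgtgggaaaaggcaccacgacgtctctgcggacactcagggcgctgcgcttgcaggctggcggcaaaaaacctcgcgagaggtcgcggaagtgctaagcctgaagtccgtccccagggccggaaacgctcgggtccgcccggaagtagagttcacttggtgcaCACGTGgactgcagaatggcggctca

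Promoters were found for 7937 members by symbol, 10092 promoters in all. The GAAA repeat was in 2.63% of them and in 10 of 24 promoters (41.7%) of the listed interferon-stimulated genes. Isg15 held 3 overlapping matches and Bst2 2, and none was found in the windows of Parp12, Trim25 and Lgals3bp. The E-box was in 10.6% of all promoters, in 14 of 72 (19.4%) of the ribosome biogenesis genes and in 16 of 58 (27.6%) of the other listed MYC targets. By direction of change, the E-box was in 10.1% of promoters of genes lower with both edits and in 10.95% of those higher with both. It was in 3.96% of 101 promoters of genes higher in sgNAT10 and lower in sgMyc, and in 11.1% of 72 promoters of genes with the opposite pattern. Without sgMyc replicate 3 these shares were 7.08% of 692 and 16.95% of 466, and those of genes lower and higher with both were 12.9% and 8.92%. A match describes the letters in the window and not a site that a factor uses.

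The effects of both edits ran in the same direction in 67.4% of the 10265 genes. Their correlation across genes was r = 0.52 (Spearman 0.50), with 0.46 from sgMyc replicates 1 and 2 alone and 0.49 from replicate 3 alone. Genes are not independent replicates, so these values describe the libraries. In the sgNAT10 set limma called 3960 genes higher and 3471 lower, 33.7% and 29.6% of 11735 tested. In the sgMyc set edgeR's quasi-likelihood test on counts called 1194 higher and 1488 lower, 7.11% and 8.86% of 16794 tested, and without replicate 3 it called 26.6% higher and 26.9% lower of 17485 tested. Of the 10265 members, sgNAT10 raised 34.7% and lowered 30.6%, and sgMyc raised 8.11% and lowered 8.74% (31.9% and 34.7% without replicate 3). All calls used a Benjamini-Hochberg adjusted p of 0.05. The sgMyc effects below are on log2(FPKM + 1), while their adjusted p come from edgeR on counts.

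Counted by calls in both sets, 623 members (6.07%) rose with both edits and 602 (5.86%) fell with both. A further 106 (1.03%) rose in sgNAT10 and fell in sgMyc, and 73 (0.711%) fell in sgNAT10 and rose in sgMyc. Without sgMyc replicate 3 the shares were 18.1%, 17.8%, 6.77% and 4.33%, and every gene of the 4 classes kept its class. The limma test of the difference itself placed the sgMyc effect above the sgNAT10 effect in 696 genes (6.78%) and below it in 1457 (14.2%), and in 23.2% and 36.4% without replicate 3. Of the genes that rose with both edits, 201 also passed the test of the difference, 187 of them with the smaller effect in sgMyc. Moving alike thus described the direction, and for those genes not the size. Some members reached the mean of 1 FPKM in a table only through the group where they were high and so had to differ there. Of 623 genes higher with both edits, 77 had a WT mean under 1 FPKM in the sgNAT10 set and 20 in the sgMyc set. Of the 602 lower with both, 86 had an sgNAT10 mean under 1 and 69 an sgMyc mean under 1. Of 2829 genes higher in sgNAT10 alone, 125 had a WT mean under 1 in that set. Of 2462 lower in sgNAT10 alone, 83 had an sgNAT10 mean under 1. Of the 106 genes higher in sgNAT10 and lower in sgMyc, 2 were under 1 in WT of the sgNAT10 set and 5 in sgMyc. Of the 73 with the opposite pattern, 8 were under 1 in sgNAT10 and 4 in WT of the sgMyc set. For such genes named below (Rgs16, Fhl1, Fgf10, Sod3, Col27a1, Steap3, Itga6, Myl9, Nrp1 and Pdgfra) the values are a description, with no test.

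**Figure D1:**
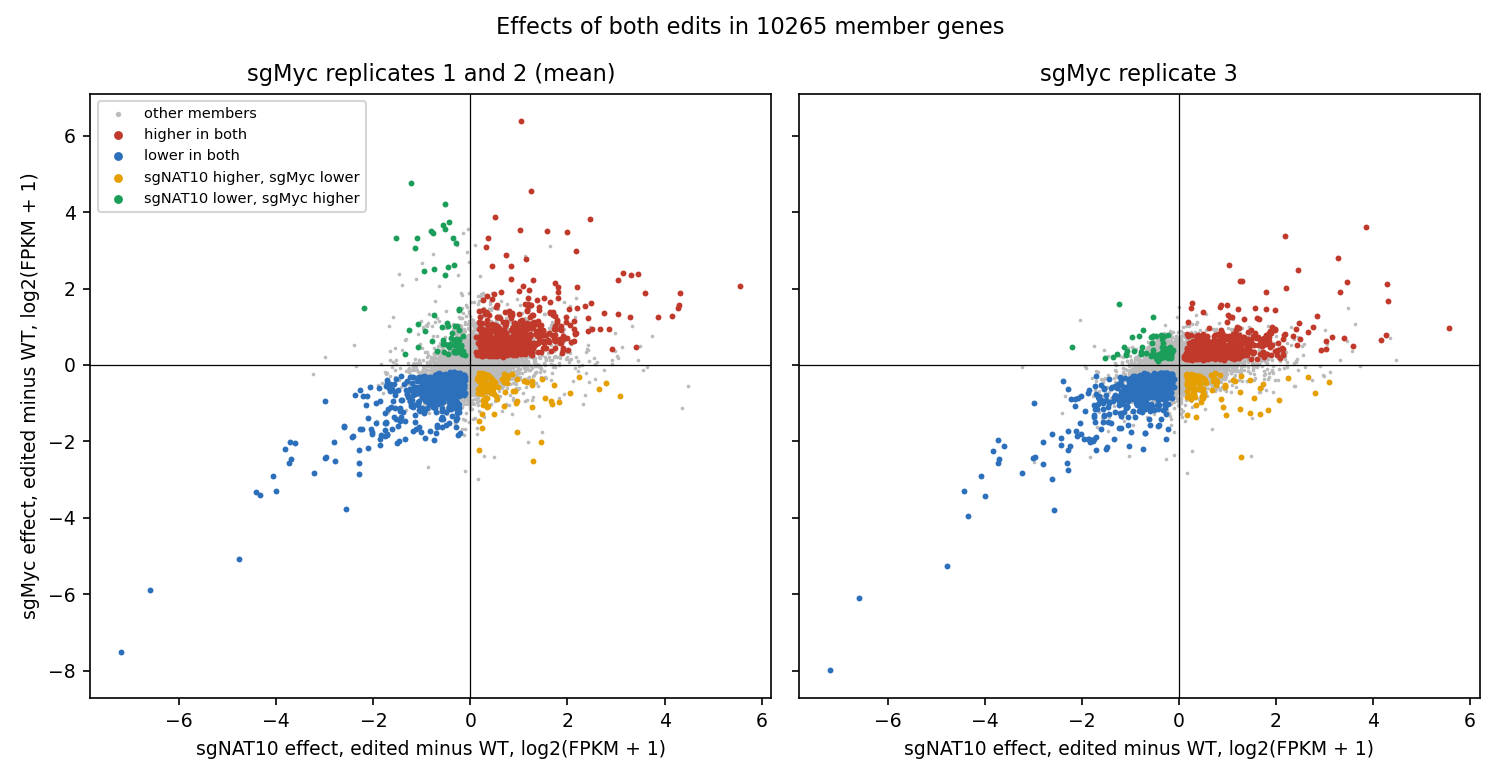
Effect of sgMyc (y axis) against effect of sgNAT10 (x axis) on log2(FPKM + 1), 1 point per member gene, with the mean of sgMyc replicates 1 and 2 on the left and replicate 3 on the right. Colours mark the 4 classes called in both sets, and grey marks the other members; the cloud along the y axis is narrower for replicate 3, and the genes lower in sgNAT10 and higher in sgMyc (green) lie above 0 in both panels.

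The 4 genes of the series title were read first, and they did not share 1 pattern. Myc mRNA was 115 and 117 FPKM in WT and 40 and 40.9 in sgNAT10, and 64.8, 61.6 and 70.8 FPKM in WT and 21.1, 20.9 and 34.1 in sgMyc replicates 1, 2 and 3. It was lower in every edited library than in any WT library of its set, with effects of -1.49 in sgNAT10 (limma adjusted p = 9.41e-06) and -1.37 in sgMyc (edgeR adjusted p = 0.011). The difference of 0.12 (SE 0.26) did not pass (limma adjusted p = 0.793; without sgMyc replicate 3 it was -0.10, adjusted p = 0.25). Nat10 had 5.36 and 5.3 FPKM in WT and 3.59 and 3.95 in sgNAT10, an effect of -0.41 (limma adjusted p = 0.00266). In the other set Nat10 had 5.01, 4.86 and 5.13 FPKM in WT and 3.52, 3.31 and 6.27 in sgMyc replicates 1, 2 and 3, so that replicate 3 alone lay above WT. Its sgMyc effect of -0.20 did not pass (edgeR adjusted p = 0.675), while without replicate 3 it was -0.44 (adjusted p = 9.98e-05). An mRNA level does not show whether a guide has disrupted the protein.

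Cdk2 and Dnmt1 parted between the edits. Cdk2, a kinase of S phase entry, had 9.2 and 9.25 FPKM in WT and 7.86 and 7.66 in sgNAT10, against 40.5, 38.9 and 46.6 FPKM in WT and 11.7, 11.2 and 12.4 in sgMyc. All edited libraries lay below WT in both sets, but the effect was -0.22 in sgNAT10 and -1.75 in sgMyc, and the difference of -1.53 (SE 0.12) passed (limma adjusted p = 0.000114; -1.56 without replicate 3). Dnmt1, which copies DNA methylation onto new strands, had 30.1 and 31.1 FPKM in WT and 38.9 and 37 in sgNAT10, against 106, 108 and 93.4 FPKM in WT and 51.6, 51.5 and 62.9 in sgMyc. It rose by 0.30 in sgNAT10 and fell by 0.88 in sgMyc (effect -0.88), with a difference of -1.18 (SE 0.15, limma adjusted p = 0.00105; -1.27 without replicate 3). The WT levels of these genes also differed between the tables, with Cdk2 at 9.2 and 9.25 FPKM in one and 40.5, 38.9 and 46.6 in the other.

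A group of 13 genes was nearly silent in all 5 edited libraries. Each had a WT mean of at least 5 FPKM in both sets and under 1 FPKM in every edited library, and the highest edited value was 0.952 FPKM. No gene met the reverse condition. The 13 genes encode matrix and surface proteins (Bgn, Sulf2, Tspan6, Pmp22), a retinoic acid binder (Crabp1), a lysosomal protease (Ctsz), an NADPH oxidase subunit (Cyba), a kinase of the RSK family (Rps6ka6), a prolyl isomerase (Ppic), an actin binder (Coro2a), an inositol synthase (Isyna1), Tex13b and 3300005D01Rik. The condition selected these genes by their levels, so the values below describe them, with no test.

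Crabp1, which binds retinoic acid in the cytosol, had 229.6 and 223 FPKM in WT and 0.651 and 0.464 in sgNAT10. In the sgMyc set it had 273, 260.0 and 332 FPKM in WT and 0.519, 0.628 and 0.127 in sgMyc, and replicate 3 was as low as the others. Bgn, the matrix proteoglycan biglycan, had 179 and 181 FPKM in WT and 0.952 and 0.793 in sgNAT10, against 94.9, 85.7 and 112 FPKM in WT and 0.704, 0.595 and 0.42 in sgMyc. Its effects were -6.60 and -5.96, and those of Crabp1 -7.19 and -7.68. Ctsz had 33.7 and 34.8 FPKM in WT and 0.282 and 0.301 in sgNAT10, against 36.2, 34.2 and 42.6 FPKM in WT and 0.139, 0.144 and 0 in sgMyc. Here replicate 3 was listed at 0. Across the 13 genes sgMyc effects ran from -7.68 in Crabp1 to -1.94 in Isyna1, and sgNAT10 effects from -7.19 to -1.86 in 3300005D01Rik. For Rps6ka6 the difference was 1.11 and for Sulf2 0.66 on log2(FPKM + 1), and both turned sign with edgeR on counts and recovered reads, to -1.19 and -0.17.

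Of the 13 genes 4 lie on the X chromosome (Bgn, Rps6ka6, Tspan6 and Tex13b), which is 30.8%, against 339 of 10112 members with a known chromosome (3.35%). The others lie on chromosomes 2 (Sulf2, Ctsz), 4 (Coro2a), 8 (Isyna1, Cyba), 9 (Crabp1), 11 (Pmp22), 17 (3300005D01Rik) and 18 (Ppic). Their 18 RefSeq promoters held a median of 12.5 CG pairs per promoter, against 22 over all members.

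**Figure D2:**
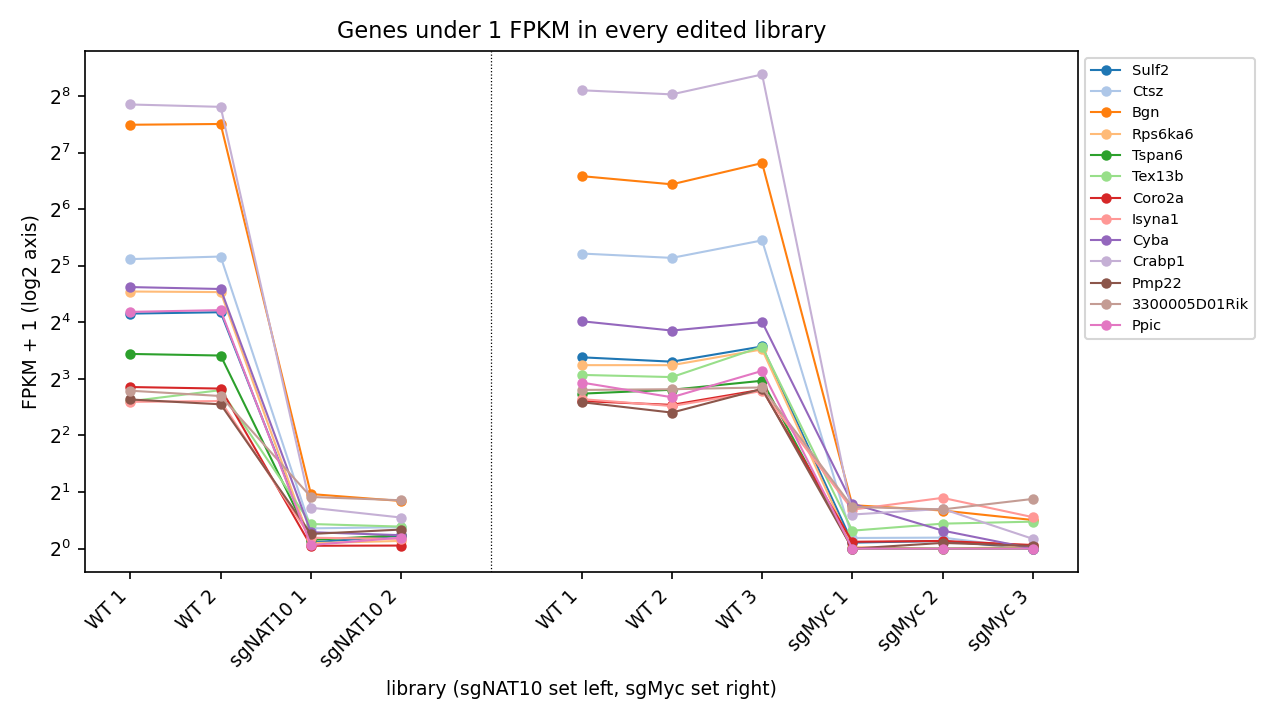
FPKM + 1 on a log2 axis (y) of the 13 genes under 1 FPKM in every edited library, in the 10 mRNA libraries (x; sgNAT10 set left, sgMyc set right; lines join the libraries of 1 gene within a set). All edited values, sgMyc replicate 3 included, lie at or under 0.952 FPKM, and the WT values lie between 4.29 FPKM in Pmp22 and 332 FPKM in Crabp1.

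Genes of ribosome assembly and translation were lower in sgNAT10 and in sgMyc replicates 1 and 2, and replicate 3 went the other way or showed little change. Of 71 ribosome biogenesis genes, 51 fell and 4 rose in sgNAT10 (median effect -0.31, against 0.01 over all members). In sgMyc 1 fell and 2 rose, with a median of -0.17, and without replicate 3 64 fell and 3 rose (-0.44). Per library, the list's median was -0.30 and -0.32 in sgNAT10, -0.45 and -0.47 in sgMyc replicates 1 and 2, and 0.37 in replicate 3. The list of MYC targets outside the ribosome, of which 49 were members, had medians of -0.29 and -0.27 in sgNAT10, -0.57 and -0.60 in sgMyc replicates 1 and 2, and 0.29 in replicate 3. In it 36 fell and 6 rose in sgNAT10, and 2 fell and 1 rose in sgMyc (44 and 3 without replicate 3). Calls over all members were 34.7% higher and 30.6% lower in sgNAT10, and 8.11% and 8.74% in sgMyc (31.9% and 34.7% without replicate 3). With all libraries the lower calls of both lists in sgMyc were thus below the all-member share. These shares apply as well to the counts of ribosomal protein, translation factor, host gene, glycolysis and mitochondrial lists below. The lists were drawn up with earlier results of these data known.

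Pes1, Phb and Tsr1, whose promoters with an E-box stand above, had this split and were chosen after their values were seen. Pes1, a nucleolar protein of large subunit assembly, had 65.5 and 65.2 FPKM in WT and 35.6 and 38.8 in sgNAT10, against 43, 43.6 and 43.7 FPKM in WT and 26.4, 24.5 and 46.6 in sgMyc. Tsr1, a factor of small subunit assembly, had 33.5 and 33.8 FPKM in WT and 21.6 and 22 in sgNAT10, against 20.4, 21.4 and 21.4 FPKM in WT and 10.4, 10.5 and 23.4 in sgMyc. Phb, which encodes prohibitin of the inner mitochondrial membrane, had 63.7 and 64.3 FPKM in WT and 39.1 and 40.3 in sgNAT10, against 40.5, 41 and 42.9 FPKM in WT and 22.8, 22.8 and 47.6 in sgMyc. In each, sgMyc replicates 1 and 2 lay below WT and replicate 3 above it. None passed in sgMyc with all libraries (edgeR adjusted p = 0.34 in Pes1, 0.37 in Tsr1 and 0.432 in Phb), and all 3 passed without replicate 3, with effects of -0.75, -0.95 and -0.83. Their differences were 0.33, 0.02 and 0.18 with all libraries and 0.05, -0.34 and -0.16 without replicate 3, so that the sign turned in Tsr1 and Phb.

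Structural proteins of the ribosome were counted by subunit. Of 46 large subunit genes, 36 fell and 2 rose in sgNAT10 (median -0.31), and 7 fell and 1 rose in sgMyc (-0.23, and -0.14 after quantile normalization; 36 and 1 without replicate 3). Rpl22l1, a paralog of Rpl22, had 44.4 and 42.3 FPKM in WT and 10.9 and 10.2 in sgNAT10, against 14.6, 14.5 and 15.6 FPKM in WT and 6.61, 7.26 and 5.93 in sgMyc, with effects of -1.94 and -1.07 and a difference of 0.87 (SE 0.11, limma adjusted p = 0.00139). All sgMyc replicates of Rpl22l1 lay below WT. Of 33 small subunit genes, 17 fell and 2 rose in sgNAT10 (median -0.13), and 1, Fau, fell in sgMyc (median -0.10, turning to 0.03 after quantile normalization; 22 fell and 2 rose without replicate 3). Fau had effects of -0.63 and -0.44. Reads of ribosomal proteins may be shared with their many pseudogene copies, and how the authors counted such reads is not given in the sources used here.

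Eef2, the factor that moves the ribosome along mRNA, had 1075 and 1086 FPKM in WT and 569 and 581 in sgNAT10, against 948, 935 and 973 FPKM in WT and 766, 762 and 779.9 in sgMyc, with effects of -0.91 and -0.31. The fall was larger in sgNAT10 (difference 0.60, SE 0.08, limma adjusted p = 0.00182). Pabpc1, which binds poly(A) tails, went the opposite way in each set, with 395 and 402 FPKM in WT and 504 and 509 in sgNAT10, against 237, 231 and 237 FPKM in WT and 127, 129 and 175 in sgMyc. Its effects were 0.35 and -0.72 (difference -1.07, limma adjusted p = 0.00489). Among 43 translation factors 26 fell and 6 rose in sgNAT10, and 4 fell and 0 rose in sgMyc (33 and 4 without replicate 3).

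Small exceptions ran through the assembly list. Imp3 and Brix1, both nucleolar assembly factors, were the 2 genes of ribosome biogenesis that rose in sgMyc while falling in sgNAT10, a count that was also 2 without replicate 3. Imp3 had 36.9 and 34.8 FPKM in WT and 30.9 and 31.7 in sgNAT10, against 36.1, 35 and 35.6 FPKM in WT and 46.3, 45.7 and 49.3 in sgMyc, with effects of -0.19 and 0.40 (difference 0.59, limma adjusted p = 0.00206). Brix1 had effects of -0.12 and 0.31 (difference 0.43, adjusted p = 0.0118). Polr1c, a subunit of RNA polymerases I and III, was with all libraries the 1 gene of the list called lower with both edits (-0.97 and -0.46; edgeR adjusted p = 0.0208 in sgMyc). Without replicate 3 the list had 47 such genes.

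Host genes of small nucleolar RNAs, which guide chemical marks on ribosomal RNA, were among the lower groups. Of 14, 11 fell and 1 rose in sgNAT10 (median -0.46), and 2 fell in sgMyc (-0.40; 12 without replicate 3). Snhg8 had 28.5 and 26.9 FPKM in WT and 14.1 and 15.2 in sgNAT10, against 17.1, 18.4 and 16.2 FPKM in WT and 9.65, 9.6 and 9.45 in sgMyc, with effects of -0.88 and -0.79. All 3 sgMyc replicates of Snhg8 lay below WT and close together.

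Within the MYC network, Max and Mxi1, which encode the partner of MYC and a repressor that competes for that partner, parted. Mxi1 had 19.1 and 19.5 FPKM in WT and 5.19 and 5.42 in sgNAT10, against 19.7, 20.8 and 20.9 FPKM in WT and 14.2, 13.4 and 8.6 in sgMyc. It fell with both edits (-1.69 and -0.75), more in sgNAT10 (difference 0.94, limma adjusted p = 0.0261). Max had 22.2 and 22.5 FPKM in WT and 15.4 and 15.4 in sgNAT10, against 12.2, 12.7 and 13.3 FPKM in WT and 13.6, 13.8 and 14.8 in sgMyc. It fell in sgNAT10 (-0.51), its sgMyc effect of 0.14 did not pass (edgeR adjusted p = 0.287), and the difference of 0.65 passed (limma adjusted p = 0.00145). Sord, an enzyme of sorbitol metabolism kept in the MYC target list, had 47.5 and 45.5 FPKM in WT and 4.71 and 5.22 in sgNAT10, against 16.1, 16.6 and 18.5 FPKM in WT and 7.8, 8.86 and 8.12 in sgMyc, a fall in each set with a difference of 2.03 (limma adjusted p = 2.66e-05).

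Glycolysis had calls in both sets with replicate 3 in the fit. Of 24 genes 17 fell and 1 rose in sgNAT10, and 9 fell and 2 rose in sgMyc (16 and 4 without replicate 3); all 9 that fell in sgMyc had also fallen in sgNAT10, and 13 did so without replicate 3. Eno3, an enolase, had 10.7 and 11.5 FPKM in WT and 2.9 and 2.46 in sgNAT10, against 14.8, 15.4 and 16.4 FPKM in WT and 3.9, 3.61 and 3.5 in sgMyc, with effects of -1.72 and -1.83. The glucose transporter gene Slc2a3 had 6.06 and 6.42 FPKM in WT and 1.59 and 1.71 in sgNAT10, against 4.24, 4.34 and 4.44 FPKM in WT and 0.847, 1.01 and 1.66 in sgMyc, with effects of -1.45 and -1.32. Neither difference passed (limma adjusted p = 0.53 for Eno3 and 0.675 for Slc2a3; 0.487 and 0.835 without replicate 3). Pgk1, phosphoglycerate kinase, fell more in sgMyc (-0.13 and -0.56; difference -0.43, adjusted p = 0.0188). Reads of glycolytic genes may also be shared with pseudogenes. The WT mean of Gapdh was 540.2 FPKM in the sgNAT10 table and 43.3 in the sgMyc table.

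Mitochondrially encoded genes had a median below 0 in every edited library. Of 13, 7 fell and 1 (mt-Nd3) rose in sgNAT10 (median -0.43), and 11 fell in sgMyc (-0.72; 13 without replicate 3), with per-library medians of -0.31 and -0.50, then -0.63, -0.72 and -0.81. After quantile normalization the medians were -0.22 in sgNAT10 and -0.48 in sgMyc, and the median difference of -0.60 became -0.30. In 6 of the 13 the WT means differed by 3 or more on the log2 scale between the tables. The complex I genes mt-Nd5 (-0.82 and -0.72) and mt-Nd6 (-0.68 and -0.79) fell with both edits. mt-Nd1 had 6429 and 5690.0 FPKM in WT and 6227 and 5796 in sgNAT10, against 2930.0, 2714 and 2739 FPKM in WT and 1326, 1285 and 1764 in sgMyc. It fell in sgMyc (-0.95), its sgNAT10 effect of -0.01 did not pass (limma adjusted p = 0.917), and the difference of -0.94 passed (adjusted p = 0.0114). The part of RNA quality in these levels was not tested. Among nuclear genes of mitochondria, Mrpl50 of the mitochondrial ribosome (-0.44 and -0.83) and Ndufb8 of complex I (-0.55 and -0.66) fell with both edits.

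Several genes of lipids, collagen and the cell cycle fell with both edits without a difference that passed. Srebf1, a transcription factor of fatty acid synthesis, had 9.69 and 9.71 FPKM in WT and 4.5 and 4.6 in sgNAT10, against 21.7, 20.4 and 23.5 FPKM in WT and 12.6, 12.1 and 11.7 in sgMyc. The desaturase gene Scd2 had effects of -0.83 and -0.96, and Srebf1 -0.95 and -0.80. P4ha2, a prolyl hydroxylase of collagen, had -0.84 and -0.85 and a difference of -0.01 (SE 0.12). The cyclin genes Ccnd2 (-0.66 and -0.57) and Ccne2 (-0.55 and -0.64) fell with both edits. So did Klf6, a zinc finger factor (-1.23 and -1.07). None of these 6 genes passed the test of the difference; the limma adjusted p ran from 0.308 in Scd2 to 0.981 in P4ha2. Without replicate 3 the difference passed in Scd2 (-0.13, adjusted p = 0.0187) and Ccne2 (-0.21, 0.0151). Itga6, an integrin of laminin binding, had 6.77 and 6.74 FPKM in WT and 0.649 and 0.639 in sgNAT10, against 4.35, 4.41 and 5.58 FPKM in WT and 0.592, 1.01 and 0.313 in sgMyc, with effects of -2.24 and -1.84. Steap3, a ferrireductase of iron uptake, had effects of -2.60 and -1.66.

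**Figure D3:**
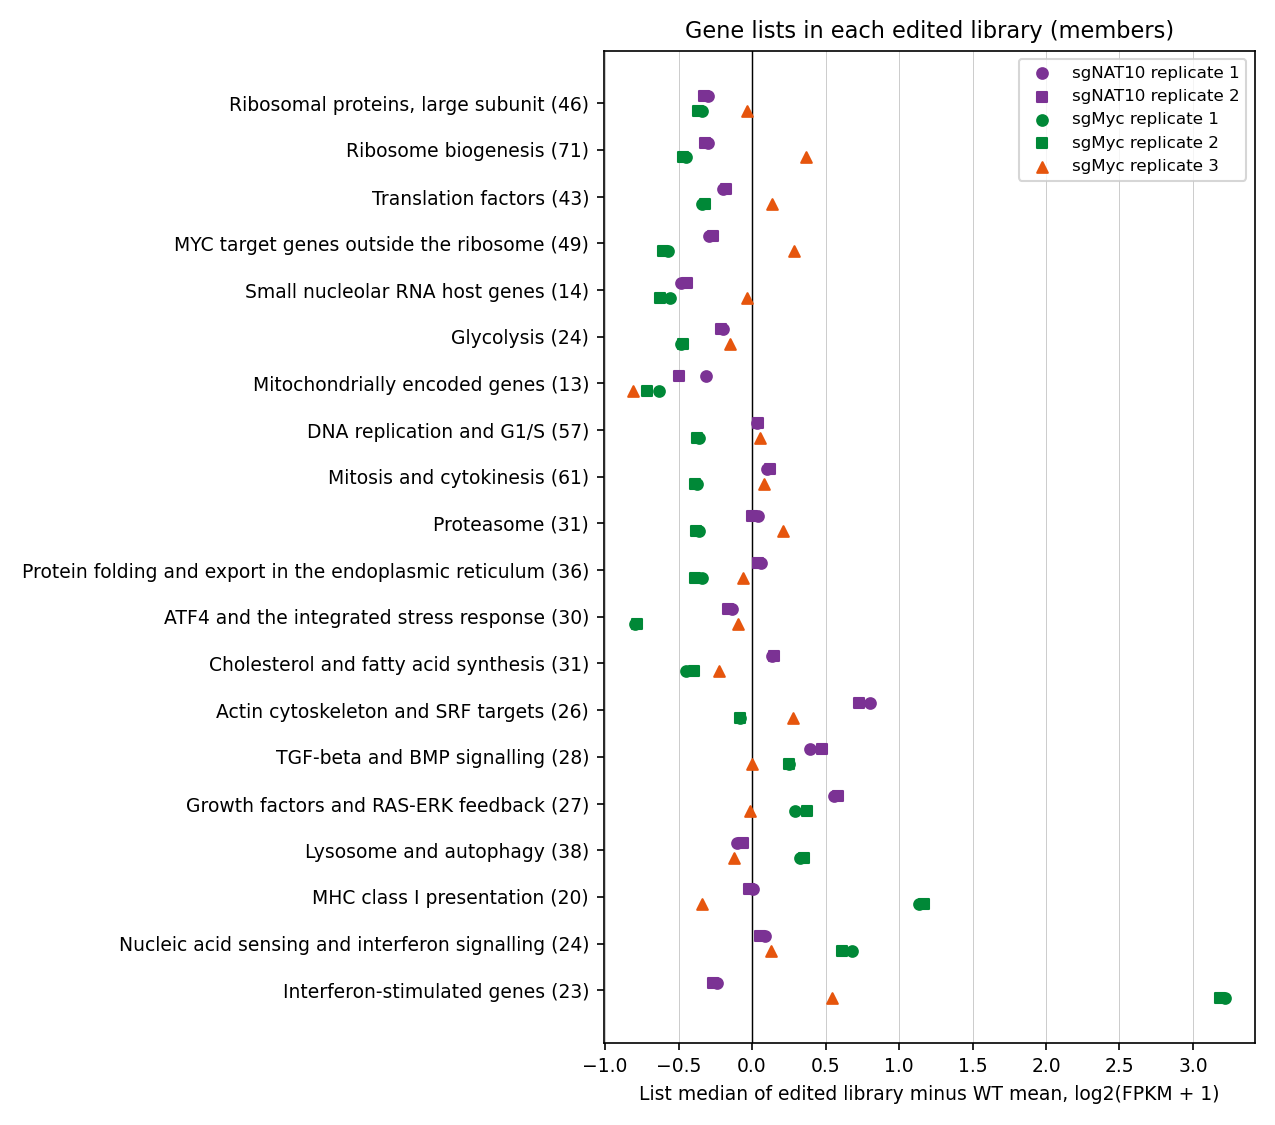
Median over the members of each gene list (number in brackets) of the edited library minus the WT mean of its set, on log2(FPKM + 1) (x axis), 1 mark per edited library. The sgMyc marks of replicates 1 and 2 lie together while replicate 3 lies apart in most lists, for instance at 0.37 against -0.45 and -0.47 in ribosome biogenesis and at 0.55 against 3.22 and 3.19 in the interferon-stimulated genes.

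Genes that rose with both edits included secreted factors, surface proteins and sensors. Ptgs2, the inducible prostaglandin synthase, had 1.41 and 1.56 FPKM in WT and 48.3 and 48.5 in sgNAT10, against 18.4, 19.4 and 16.5 FPKM in WT and 69.8, 68.5 and 59.4 in sgMyc. All edited libraries, replicate 3 included, lay above WT. The effect was 4.32 in sgNAT10 and 1.81 in sgMyc (difference -2.51, SE 0.13, limma adjusted p = 1.52e-05). Thy1, a surface glycoprotein of fibroblasts, had 1.04 and 1.35 FPKM in WT and 42.6 and 40.9 in sgNAT10, against 14.3, 12.4 and 10.8 FPKM in WT and 39.4, 38.8 and 57.5 in sgMyc. Its rise of 4.29 in sgNAT10 also exceeded that of 1.76 in sgMyc (difference -2.53, adjusted p = 0.000381).

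Spp1, the secreted phosphoprotein osteopontin, had 57.1 and 56.6 FPKM in WT and 521 and 503 in sgNAT10, against 639, 660.2 and 556 FPKM in WT and 3348, 3245 and 1023 in sgMyc. Replicate 3 lay between WT and the other sgMyc libraries. The effects were 3.15 and 1.85, and the difference of -1.30 (SE 0.63) did not pass (limma adjusted p = 0.189; -0.73 and 0.000108 without replicate 3). Rgs16, which shuts off G protein signals, had 0.429 and 0.629 FPKM in WT and 15 and 13.5 in sgNAT10, against 8.67, 7.55 and 6.13 FPKM in WT and 41.2, 42.6 and 30.7 in sgMyc, with effects of 3.32 and 2.21. Fhl1, a LIM domain protein, had 0.0492 and 0.117 FPKM in WT and 14.9 and 14.5 in sgNAT10, against 0.171, 0.177 and 0.0224 FPKM in WT and 1.84, 1.49 and 12.8 in sgMyc. Here replicate 3 was the highest sgMyc library, and the effects were 3.86 and 2.04 (1.25 without it).

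Of 27 growth factor and RAS-ERK feedback genes 3 rose with both edits and 1 fell with both (13 and 2 without replicate 3). Of 30 matrix glycoproteins and proteoglycans 7 rose with both and 4 fell with both (15 and 5 without it). Over all members 6.07% rose with both and 5.86% fell with both (18.1% and 17.8% without it). Grem1, which encodes the BMP antagonist gremlin, had 2.23 and 3.05 FPKM in WT and 168 and 172 in sgNAT10, against 100, 106 and 80.5 FPKM in WT and 402, 400.0 and 188 in sgMyc. Its effects were 5.56 and 1.71 (difference -3.86, limma adjusted p = 0.000711). The growth factor gene Ereg rose with both (3.04 and 1.03; difference -2.01, limma adjusted p = 0.00562). Fgf10, another growth factor gene, had effects of 3.60 and 1.43, and Sod3, an extracellular superoxide dismutase, 4.27 and 1.25. WT means in the sgNAT10 table were 0.403 FPKM for Fgf10 and 0.0547 for Sod3. Thbs2, a matricellular thrombospondin, had effects of 3.04 and 1.69, whose difference of -1.35 did not pass (adjusted p = 0.154; -0.82 and 0.000478 without replicate 3). Thbs1 had 8.42 and 8.9 FPKM in WT and 106 and 98 in sgNAT10, against 64.3, 65.6 and 55.9 FPKM in WT and 86, 87.2 and 101 in sgMyc, and its difference of -2.86 passed (adjusted p = 1.13e-05). Nqo1, a quinone reductase (1.84 and 0.64), and Zyx, a protein of focal adhesions (1.40 and 0.56), rose more in sgNAT10 as well. The collagen gene Col27a1 had effects of 1.97 and 1.16.

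Some genes rose with both edits without a difference that passed. Aim2, a sensor of cytosolic DNA, had 1.36 and 1.17 FPKM in WT and 6.9 and 6.82 in sgNAT10, against 4.95, 4.87 and 4.14 FPKM in WT and 17.7, 18.3 and 14.4 in sgMyc, with effects of 1.80 and 1.65 and a difference of -0.15 (SE 0.15, limma adjusted p = 0.558). Kdm1a, a histone demethylase, had 13.8 and 14.5 FPKM in WT and 24.1 and 24.6 in sgNAT10, against 28.6, 27.8 and 26.7 FPKM in WT and 47.9, 45.8 and 43.5 in sgMyc, with effects of 0.74 and 0.70 and a difference of -0.04 (SE 0.09, adjusted p = 0.792). In both genes every edited library lay above every WT library of its set. Tgfb3, a ligand of the TGF-beta family (0.86 and 1.11), Smox, which oxidises spermine (0.63 and 0.69), and Cebpb, a basic zipper factor (1.16 and 0.78), also had differences that did not pass with all libraries (limma adjusted p = 0.522 in Tgfb3, 0.844 in Smox and 0.202 in Cebpb). Without replicate 3 the difference passed in Tgfb3 (0.43, adjusted p = 0.00917) and Cebpb (-0.23, 0.0172). Nfe2l2, the factor of the oxidative stress response, rose with both (0.91 and 0.81), with a difference of -0.10 that turned to 0.19 without replicate 3. A p that misses the threshold does not show equal effects. Jak1, the kinase of interferon receptors, rose more in sgNAT10 (1.21 and 0.65; difference -0.56, adjusted p = 0.00517).

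Interferon-stimulated genes had the largest median difference of the lists, 2.55 with all libraries and 3.38 without replicate 3, against -0.05 and -0.07 over all members. Of 66 listed genes 23 were members, and in sgMyc 16 of them rose and 0 fell (23 and 0 without replicate 3). In sgNAT10 6 rose and 13 fell. All-member shares were 8.11% higher and 8.74% lower in sgMyc (31.9% and 34.7% without replicate 3), and 34.7% and 30.6% in sgNAT10. The median effects were -0.25 in sgNAT10 and 2.32 in sgMyc (3.20 without replicate 3), against 0.01 and -0.02 over all members. Of the 23, 9 fell in sgNAT10 and rose in sgMyc (13 without replicate 3) and 5 rose with both (6). The test of the difference passed in 4, all above 0, and in all 23 without replicate 3. Per library the median was -0.24 and -0.27 in sgNAT10, 3.22 and 3.19 in sgMyc replicates 1 and 2, and 0.55 in replicate 3. Membership leaves out most of the list: all of the 42 other genes in the tables had a mean under 1 FPKM in the sgNAT10 table, and edgeR called 36 of the 40 tested in sgMyc higher (39 without replicate 3).

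Bst2, a membrane protein that tethers budding viruses and whose promoter stands above, had 37.7 and 38.6 FPKM in WT and 16.8 and 14.7 in sgNAT10. In the sgMyc set it had 39.5, 39.3 and 34.4 FPKM in WT and 1048, 1053 and 117 in sgMyc. The sgNAT10 libraries lay below WT and all sgMyc libraries above WT, with replicate 3 far below the other sgMyc libraries. The effects were -1.23 and 3.71 (edgeR adjusted p = 0.0178), with a difference of 4.94 (SE 1.16, limma adjusted p = 0.0187; 6 without replicate 3). Lgals3bp, a secreted glycoprotein, had 6.64 and 6.43 FPKM in WT and 4.36 and 4.11 in sgNAT10, against 12, 10.7 and 11.3 FPKM in WT and 230.4, 227 and 28.3 in sgMyc. Its effects were -0.52 and 3.23, with a difference of 3.76 (adjusted p = 0.0426). Trim25, a ubiquitin ligase of RNA sensing, had 12.4 and 12.7 FPKM in WT and 5.63 and 6.34 in sgNAT10, against 8.35, 8.36 and 8.89 FPKM in WT and 52, 50.8 and 14.7 in sgMyc. Its effects were -0.96 and 1.88, with a difference of 2.84 (adjusted p = 0.0161). Parp12, an ADP-ribosyltransferase, had 5.2 and 5.02 FPKM in WT and 2.7 and 2.47 in sgNAT10, against 6.8, 6.5 and 7.11 FPKM in WT and 84.2, 85.2 and 8.79 in sgMyc. Its difference of 3.18 did not pass with replicate 3 (adjusted p = 0.0872) and was 4.23 without it.

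Adar, which edits adenosines in double-stranded RNA, and Ifitm3, which blocks viral entry, were picked after their values were seen. Adar had 6.29 and 5.99 FPKM in WT and 5.03 and 4.28 in sgNAT10, against 6.61, 6.45 and 6.32 FPKM in WT and 44.6, 44.8 and 11 in sgMyc. It fell by 0.34 in sgNAT10 (effect -0.34) and rose by 1.97 in sgMyc, and the difference of 2.31 did not pass (limma adjusted p = 0.0517; 2.95 without replicate 3). Ifitm3 had 88.3 and 90.4 FPKM in WT and 129.8 and 123 in sgNAT10, against 80.9, 80.4 and 71.9 FPKM in WT and 1136, 1167 and 205 in sgMyc. It rose with both edits, by 0.50 and 3.05.

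Isg15 and Cxcl10, whose promoters stand above, rose in both sets. Isg15, a ubiquitin-like modifier, had 1.69 and 1.22 FPKM in WT and 4.22 and 3.85 in sgNAT10, and 6.37, 4.46 and 6.74 FPKM in WT and 574, 559 and 40.5 in sgMyc. It had effects of 1.04 and 5.13, and the difference of 4.09 (SE 1.40) did not pass with all libraries (limma adjusted p = 0.0736; 5.35 and 4.33e-08 without replicate 3). Cxcl10, a chemokine for T cells, had 3.65 and 3.6 FPKM in WT and 10.4 and 9.77 in sgNAT10, against 8.5, 9.49 and 9.69 FPKM in WT and 239.7, 238 and 46.1 in sgMyc. The effects of Cxcl10 were 1.26 and 3.77, and the difference of 2.51 did not pass (adjusted p = 0.0755; 2.58e-09 without replicate 3). Ifi27, of the inner mitochondrial membrane, had 9.99 and 9.58 FPKM in WT and 10.7 and 11.7 in sgNAT10, against 30, 29.1 and 31 FPKM in WT and 66.7, 66.6 and 66.9 in sgMyc. In it replicate 3 matched the other sgMyc libraries, and the difference of 0.95 passed (adjusted p = 0.000251).

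**Figure D4:**
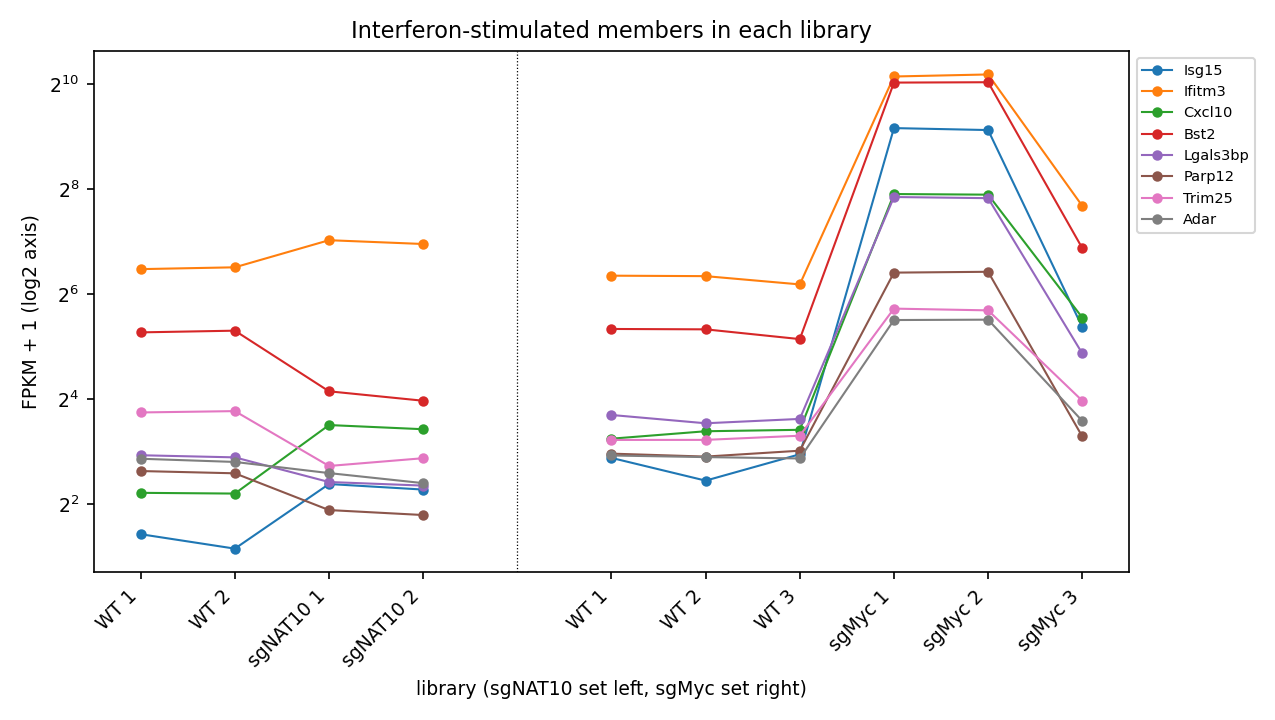
FPKM + 1 on a log2 axis (y) of 8 interferon-stimulated members in the 10 mRNA libraries (x; sgNAT10 set left, sgMyc set right; lines join the libraries of 1 gene within a set). All 8 are higher in the 3 sgMyc libraries than in WT, with replicate 3 the lowest of the 3, while in sgNAT10 Isg15, Ifitm3 and Cxcl10 are above WT and the other 5 below it.

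Immune lists outside the interferon-stimulated genes had other counts of calls with and without sgMyc replicate 3. Over all members sgNAT10 raised 34.7% and lowered 30.6%, and sgMyc raised 8.11% and lowered 8.74% (31.9% and 34.7% without replicate 3). Of 24 members in the list of sensors and signalling proteins upstream of interferon genes, 8 rose and 10 fell in sgNAT10, and 10 rose and 0 fell in sgMyc (24 and 0 without replicate 3). The difference passed above 0 in 3 and below 0 in 1 (15 and 3 without it). Tmem173, the cytosolic DNA signalling protein STING, had 12.8 and 12.3 FPKM in WT and 4.61 and 4.28 in sgNAT10, against 9.22, 9.15 and 9.83 FPKM in WT and 16, 15 and 8.56 in sgMyc. It fell in sgNAT10 (-1.32), and its sgMyc effect of 0.41 did not pass (edgeR adjusted p = 0.197; 0.67 and 9.62e-06 without replicate 3, which lay below WT). The difference of 1.72 passed (limma adjusted p = 0.00517). In antigen presentation by MHC class I, 20 genes were members, of which 7 rose and 9 fell in sgNAT10, and 1, H2-T22, rose in sgMyc with all libraries (17 rose and 3 fell without replicate 3). Their difference passed above 0 in 1 and below 0 in 1 (16 and 3 without it), and the per-library medians in sgMyc were 1.13, 1.17 and -0.34. H2-T22, a class I heavy chain gene whose promoter stands above, had 8.1 and 8.52 FPKM in WT and 20.2 and 18.9 in sgNAT10, against 24.7, 25.5 and 23.3 FPKM in WT and 174, 173 and 33.8 in sgMyc. Its effects were 1.14 and 2 (2.78 without replicate 3), and the difference of 0.86 did not pass with all libraries (limma adjusted p = 0.531; 1.64 and 7.49e-08 without it). Its reads may be shared with near-identical class I genes. Psmb10, a subunit of the immunoproteasome, had 15.1 and 13.4 FPKM in WT and 4.73 and 4.33 in sgNAT10, against 4.81, 5.72 and 5.18 FPKM in WT and 32.1, 30.3 and 6.26 in sgMyc. It fell in sgNAT10 (-1.46), and its sgMyc effect of 1.65 missed the threshold (edgeR adjusted p = 0.0513; 2.37 without replicate 3), while the difference of 3.12 passed (limma adjusted p = 0.026).

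Outside the interferon list, Rnf213, Agrn and Ly6e were the genes the naming rule gave for this opposite class. Rnf213, a large ubiquitin ligase, had 13.2 and 13.4 FPKM in WT and 4.15 and 3.78 in sgNAT10, against 9.74, 9.97 and 11.1 FPKM in WT and 111, 113 and 11.7 in sgMyc. Replicate 3 lay just above the highest WT library. The effects were -1.53 and 2.28, with a difference of 3.81 (SE 1.16, limma adjusted p = 0.0495). Agrn, the matrix proteoglycan agrin, had 6.89 and 6.84 FPKM in WT and 2.6 and 2.54 in sgNAT10, against 10.4, 10.7 and 11 FPKM in WT and 94.7, 98.7 and 15.1 in sgMyc. Its effects were -1.14 and 2.19, with a difference of 3.33 (adjusted p = 0.0406). Agrn is the protein-coding neighbour of Isg15 in the RefSeq gene table. Ly6e, a lipid-anchored surface protein, had 70.2 and 71.9 FPKM in WT and 41.5 and 41.6 in sgNAT10, against 36.2, 34.7 and 39.3 FPKM in WT and 213, 212 and 51.7 in sgMyc. It fell by 0.76 in sgNAT10 (effect -0.76) and rose by 1.83 in sgMyc (difference 2.59, adjusted p = 0.0411).

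The same opposite pattern held in a few signalling genes. Pdgfrb, a receptor for platelet-derived growth factor, had 2.78 and 2.5 FPKM in WT and 1.63 and 1.64 in sgNAT10, against 2.2, 1.82 and 1.56 FPKM in WT and 15.6, 16.2 and 3.78 in sgMyc. All sgMyc libraries lay above WT, and the difference was 2.42 (SE 0.68, limma adjusted p = 0.0372). Ddit4, a stress-induced inhibitor of mTOR, had 41.2 and 43.7 FPKM in WT and 15.5 and 16.5 in sgNAT10, against 40.2, 39.3 and 38.6 FPKM in WT and 46.7, 49.3 and 45.9 in sgMyc. Replicate 3 matched the other sgMyc libraries here, and the difference of 1.61 (SE 0.09) came from effects of -1.35 and 0.26. Dusp2, a phosphatase of MAP kinases, had effects of -0.93 and 0.72 (difference 1.65, adjusted p = 0.0013).

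Genes that rose in sgNAT10 and fell in sgMyc made up the other opposite class, and all 106 of them passed the test of the difference. In the class lower in sgNAT10 and higher in sgMyc, 63 of 73 passed. Both classes were picked by calls of opposite sign in the same libraries, so a difference that passes follows largely from that choice. Esm1, a secreted proteoglycan of vessels, had 8.53 and 7.95 FPKM in WT and 23.7 and 25.1 in sgNAT10, against 66.6, 69.2 and 74.8 FPKM in WT and 16.6, 16.5 and 28.6 in sgMyc. Its effects were 1.46 and -1.77, with a difference of -3.22 (SE 0.29, limma adjusted p = 0.000251). Abca1, which exports cholesterol, had 3.52 and 3.43 FPKM in WT and 14.9 and 14.9 in sgNAT10, against 20.7, 21.9 and 22 FPKM in WT and 10.3, 10.7 and 9 in sgMyc. All sgMyc replicates lay close together, and the difference was -2.87 (SE 0.11, adjusted p = 4.15e-06). Osr1, a zinc finger factor, had 5.81 and 5.67 FPKM in WT and 19.7 and 21.2 in sgNAT10, against 22.7, 19.3 and 23.5 FPKM in WT and 10.8, 10.7 and 8.33 in sgMyc, with a difference of -2.73 (adjusted p = 3.53e-05). Cd44, the receptor for hyaluronan, had 45.4 and 45.8 FPKM in WT and 90.1 and 87.8 in sgNAT10, against 93, 90.8 and 96.7 FPKM in WT and 46.1, 47.5 and 62.7 in sgMyc, with a difference of -1.80 (adjusted p = 0.000321). Msln, the surface protein mesothelin, had effects of 1.67 and -0.89, and Timp1, an inhibitor of matrix proteases, 0.95 and -0.81. Plk2, a kinase induced by p53, rose in sgNAT10 (0.86) and had -1.01 in sgMyc, which passed only without replicate 3 (-1.30).

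In this class the WT level of the sgMyc set lay nearer to sgNAT10 than to its WT in most genes. Abca1 had 3.52 and 3.43 FPKM in the WT of the sgNAT10 set and 20.7, 21.9 and 22 in that of the sgMyc set, and Msln 2.09 and 1.73 against 33.1, 33.4 and 31.5. Over the class, the WT mean of the sgMyc set was nearer to the sgNAT10 mean than to the WT mean of the sgNAT10 set in 94 of 106 genes (88.7%), against 54.4% of all members. The share was 71.6% in genes higher with both edits, 20.3% in genes lower with both and 56.2% in genes lower in sgNAT10 and higher in sgMyc. These levels compare tables that were normalized separately, and 128 members had WT means that differed by 3 or more on the log2 scale between the tables. Over all members the WT mean of the sgMyc set was higher by a median of 0.24 on that scale, against 0.80 in this class. The part of the unlike WT cells or processing in the opposite effects was not tested.

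Genes of mitosis leaned in the same direction. Of 61 genes of mitosis and cytokinesis, 27 rose and 8 fell in sgNAT10, and 0 rose and 7 fell in sgMyc (2 and 54 without replicate 3). The test of the difference passed below 0 in 16 and above 0 in 0 (57 and 1 without it). Among all members it passed below 0 in 14.2% and above 0 in 6.78% (36.4% and 23.2% without replicate 3). All-member shares called were 34.7% higher and 30.6% lower in sgNAT10. In sgMyc they were 8.11% and 8.74% (31.9% and 34.7% without replicate 3). Prc1, which bundles spindle microtubules, had 14.8 and 14.5 FPKM in WT and 25.6 and 24.1 in sgNAT10, against 28, 27.6 and 26.1 FPKM in WT and 19.2, 19 and 27 in sgMyc. Foxm1, a transcription factor of mitotic genes, had 22.9 and 22.3 FPKM in WT and 41.6 and 42.6 in sgNAT10, against 26.5, 26.1 and 25.3 FPKM in WT and 19.5, 21.3 and 30.6 in sgMyc. In both genes sgMyc replicates 1 and 2 lay below WT while replicate 3 lay inside or above the WT range, and the sgMyc effects did not pass (edgeR adjusted p = 0.237 in Prc1 and 0.708 in Foxm1). Without replicate 3 they fell (-0.49 and -0.33). The differences passed, at -1.05 (limma adjusted p = 0.00626) and -1.02 (0.0138).

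Of 57 genes of DNA replication and the G1/S step, 18 rose and 17 fell in sgNAT10, and 0 rose and 9 fell in sgMyc (3 and 48 without replicate 3). Here the difference passed below 0 in 12 and above 0 in 1 (41 and 3 without it). The sgNAT10 calls of this list were close to the shares over all members, 34.7% higher and 30.6% lower. The sgNAT10 median of this list, 0.03, turned to -0.04 after quantile normalization. Prim2, a primase subunit, had effects of 0.57 and -0.23 (-0.37 without replicate 3) and a difference of -0.80 (limma adjusted p = 0.0148). Ccnd1, cyclin D1, had 133 and 133 FPKM in WT and 175 and 176 in sgNAT10, against 203, 203 and 202 FPKM in WT and 124, 127 and 166 in sgMyc, and opposite effects of 0.40 and -0.55 (difference -0.95, adjusted p = 0.00503). Smc2 of condensin (-0.28 and -0.93) and Cdt1, which licenses origins (-0.80 and -0.35), fell with both edits, Smc2 more in sgMyc and Cdt1 more in sgNAT10. Cdkn1a, the CDK inhibitor p21, had 121 and 126 FPKM in WT and 50.6 and 51.1 in sgNAT10, against 80.6, 84 and 86.3 FPKM in WT and 78.8, 79.4 and 55.4 in sgMyc. It fell in sgNAT10 (-1.26), its sgMyc effect of -0.25 did not pass (edgeR adjusted p = 0.305), and the difference of 1.02 passed (limma adjusted p = 0.0095).

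Sterol and secretory genes leaned the same way in the test of the difference. Among all members that test passed below 0 in 14.2% and above 0 in 6.78% (36.4% and 23.2% without replicate 3). Shares called over all members were 34.7% higher and 30.6% lower in sgNAT10. For sgMyc they were 8.11% and 8.74% (31.9% and 34.7% without replicate 3). Of 31 genes of cholesterol and fatty acid synthesis, 16 rose and 10 fell in sgNAT10, and 0 rose and 11 fell in sgMyc (1 and 25 without replicate 3). Of them 5 rose in sgNAT10 and fell in sgMyc, and 5 fell with both edits (11 and 10 without it). The difference passed below 0 in 14 and above 0 in 0 (25 and 1 without it). Msmo1, a sterol oxidase, had 14.4 and 14.4 FPKM in WT and 19.8 and 18.8 in sgNAT10, against 35.8, 39.4 and 34.7 FPKM in WT and 24.5, 23 and 26.8 in sgMyc, with opposite effects of 0.40 and -0.55 (difference -0.94, limma adjusted p = 0.000954). Insig1, which retains the sterol sensor in the endoplasmic reticulum, rose in sgNAT10 (0.84) and had -0.17 in sgMyc (edgeR adjusted p = 0.319; -0.06 without replicate 3). Nsdhl, a sterol dehydrogenase, had 0.75 and -0.31, which passed in sgMyc only without replicate 3 (-0.40), and a difference of -1.06 (limma adjusted p = 0.00217). Of 36 genes of protein folding and export in the endoplasmic reticulum, 14 rose and 7 fell in sgNAT10, and 1 rose and 4 fell in sgMyc (5 and 27 without replicate 3), with 11 differences below 0 and 0 above (29 and 2 without it). Sec61b, a channel subunit, had 43.5 and 39.8 FPKM in WT and 41.8 and 41.6 in sgNAT10, against 50, 49.3 and 49.3 FPKM in WT and 24.1, 24 and 36.7 in sgMyc. It fell in sgMyc (-0.82) with an sgNAT10 effect of 0.00 that did not pass (difference -0.82, adjusted p = 0.0385). Hsp90b1, an endoplasmic chaperone, fell with both edits (-0.45 and -0.98), and Pdia4, a disulphide isomerase, had 0.38 and -0.44 with a difference of -0.82 (limma adjusted p = 0.0459). Its sgMyc effect did not pass (edgeR adjusted p = 0.216; -0.65 and 2.41e-07 without replicate 3).

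Of 30 genes of the ATF4 stress response, 8 rose and 16 fell in sgNAT10, and 2 rose and 8 fell in sgMyc (5 and 23 without replicate 3). Chac1, which degrades glutathione, had 28 and 28.5 FPKM in WT and 31 and 32.9 in sgNAT10, against 30.7, 28 and 27.4 FPKM in WT and 9.48, 9.87 and 17.6 in sgMyc. It rose by 0.17 in sgNAT10 and fell in sgMyc (-1.21), with a difference of -1.38 (limma adjusted p = 0.0149). Nupr1, a stress-induced chromatin protein, fell with both (-0.87 and -0.73; difference 0.15, adjusted p = 0.421). For the 31 proteasome genes, 12 rose and 11 fell in sgNAT10, and 1 fell in sgMyc with all libraries against 27 without replicate 3, when 1 rose. For comparison, sgNAT10 raised 34.7% and lowered 30.6% of all members. sgMyc raised 8.11% and lowered 8.74% of them (31.9% and 34.7% without replicate 3).

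Most genes of the actin list rose in sgNAT10, and few of them were called in sgMyc with all libraries. Of 26 genes of the actin cytoskeleton and SRF targets, 20 rose and 1 fell in sgNAT10 (median 0.76), and 3 rose and 1 fell in sgMyc (0.03; 7 and 9 without replicate 3, -0.08). The difference passed below 0 in 13 and above 0 in 0 (24 and 0 without replicate 3). Among all members it passed below 0 in 14.2% and above 0 in 6.78% (36.4% and 23.2%). All-member shares called were 34.7% higher and 30.6% lower in sgNAT10, and 8.11% and 8.74% in sgMyc (31.9% and 34.7% without replicate 3). Myl9, a myosin light chain, had 0.55 and 0.75 FPKM in WT and 19.1 and 19.9 in sgNAT10, against 4.93, 5.63 and 4.61 FPKM in WT and 5.19, 4.54 and 11.7 in sgMyc. Replicate 3 of sgMyc was above WT and the others inside the WT range or just below it. Tpm2, a tropomyosin, had 15.2 and 16.9 FPKM in WT and 37.9 and 36.9 in sgNAT10, against 52.4, 49.5 and 44.6 FPKM in WT and 46.5, 45.8 and 44.7 in sgMyc, with a difference of -1.26 (limma adjusted p = 0.000242). Cnn2, a calponin, had 1.35 and 0.08 (-0.19 without replicate 3) and a difference of -1.27 (adjusted p = 0.0211). Ctgf, a matricellular target of YAP, had 6.13 and 6.24 FPKM in WT and 9.35 and 8.86 in sgNAT10, against 7.68, 8.38 and 9.42 FPKM in WT and 0.695, 0.894 and 4.9 in sgMyc. All sgMyc libraries lay below WT, but the effect of -1.83 did not pass (edgeR adjusted p = 0.136; -2.40 and 1.32e-07 without replicate 3), while the difference of -2.32 passed (limma adjusted p = 0.0355). Amotl2, which binds YAP, had effects of 0.79 and -0.73 and a difference of -1.52 (limma adjusted p = 0.0165). Its sgMyc effect did not pass (edgeR adjusted p = 0.162; -1.04 and 9.82e-08 without replicate 3).

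Of 28 genes of TGF-beta and BMP signalling, 19 rose and 3 fell in sgNAT10, and 8 rose and 0 fell in sgMyc (19 and 8 without replicate 3), with 7 higher with both edits (16 without it). The difference passed below 0 in 10 and above 0 in 1 (14 and 4 without it). Fst, follistatin, which traps activins, had 12.8 and 12.4 FPKM in WT and 70.3 and 68 in sgNAT10, against 35.8, 38.3 and 36.4 FPKM in WT and 21, 21.2 and 38.2 in sgMyc. Its sgMyc effect of -0.50 did not pass (edgeR adjusted p = 0.284; -0.77 and 2.57e-07 without replicate 3), and the difference of -2.87 did (limma adjusted p = 0.00058). Of 27 growth factor and RAS-ERK feedback genes, 17 rose and 6 fell in sgNAT10, and 5 rose and 4 fell in sgMyc (17 and 7 without replicate 3). Lysosome and autophagy genes leaned the other way, with 8 of 38 higher and 15 lower in sgNAT10, and 4 higher and 2 lower in sgMyc (27 and 4 without replicate 3). Among 21 YAP and TEAD targets 14 rose and 6 fell in sgNAT10, and 7 rose and 1 fell in sgMyc, with 6 higher with both edits. Without replicate 3, 13 rose and 7 fell in sgMyc, with 10 higher with both. Beside these lists, sgNAT10 raised 34.7% and lowered 30.6% of all members. sgMyc raised 8.11% and lowered 8.74% of them (31.9% and 34.7% without replicate 3). The share of all members higher with both edits was 6.07% (18.1% without it).

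With all libraries 2829 members were higher and 2462 lower in sgNAT10 alone, and 137 higher and 189 lower in sgMyc alone. Without sgMyc replicate 3 the counts were 1010 and 869 for sgNAT10, and 975 and 1048 for sgMyc. Of the 2829, 955 passed the test of the difference. Cavin2, a coat protein of caveolae, had 16.2 and 16.2 FPKM in WT and 202 and 203 in sgNAT10, against 142, 149.9 and 131 FPKM in WT and 129, 127 and 182 in sgMyc. Its difference was -3.53 (SE 0.21, limma adjusted p = 2.76e-05). Bdnf, a neurotrophin, had 0.962 and 1.15 FPKM in WT and 11.5 and 11.4 in sgNAT10, against 5.29, 5.54 and 5.3 FPKM in WT and 5.35, 5.99 and 5.11 in sgMyc, with a difference of -2.58 (adjusted p = 4.15e-06). Sgk1, a kinase induced by serum and steroids, had 1.79 and 1.96 FPKM in WT and 64.8 and 61 in sgNAT10, against 59.9, 58 and 54.4 FPKM in WT and 39.1, 38 and 62.6 in sgMyc, with a difference of -4.81 (adjusted p = 2.52e-05). Cryab, a small heat shock protein, had 2.07 and 2.91 FPKM in WT and 71.9 and 67.7 in sgNAT10, against 29.5, 27.4 and 22.8 FPKM in WT and 11.8, 11.4 and 44.1 in sgMyc, and sgMyc replicate 3 alone lay above WT. H2afx, a histone variant that marks DNA breaks, had 2 and 0.28 and a difference of -1.72 (adjusted p = 0.000205). Without replicate 3 sgMyc lowered Sgk1 (-0.56) and Cryab (-1.12) and raised H2afx (0.22), Oaf (0.13) and Cd248 (0.38), and none of the 5 passed in sgMyc with all libraries. Klf4, a zinc finger factor, had effects of 2.75 and -0.22, and Nrp1, a receptor of semaphorins, 2.92 and 0.13. Oaf, a secreted protein, had 2.91 and 0.08.

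The WT baseline bears on these values. In Cavin2, Sgk1 and Cd248, an endosialin of stromal cells, the WT of the sgMyc set already stood at 142, 149.9 and 131, at 59.9, 58 and 54.4 and at 38.9, 35.9 and 35.7 FPKM, against 202 and 203, 64.8 and 61 and 33.5 and 35.4 in sgNAT10. Of 489 members that rose by 1 or more in sgNAT10, 397 (81.2%) had a WT mean in the sgMyc set nearer to sgNAT10 than to its WT, and of 237 that fell by 1 or more, 62 (26.2%) did. A small sgMyc effect in such genes cannot be told apart from a different starting level.

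For genes lower in sgNAT10 alone, the WT mean of the sgMyc set was nearer to sgNAT10 in 42.0%, against 71.7% of those higher in sgNAT10 alone. Its median excess over the WT mean of the sgNAT10 set was -0.10 and 0.50 on the log2 scale, against 0.24 over all members. A higher WT level in the sgMyc table brings it nearer to raised levels and further from lowered ones. The part of that offset in these shares was not tested. Pus10, a pseudouridine synthase, had 13.7 and 13.8 FPKM in WT and 5.54 and 5.59 in sgNAT10, against 7.12, 7.62 and 7.82 FPKM in WT and 7.43, 8.09 and 7.78 in sgMyc, with a difference of 1.21 (SE 0.08, limma adjusted p = 6.37e-05). Ier3, an early response gene, had 297 and 307 FPKM in WT and 103 and 93.4 in sgNAT10, against 388, 382 and 418 FPKM in WT and 384, 379 and 281 in sgMyc, with a difference of 1.41 (adjusted p = 0.00154). Col4a1, a basement membrane collagen, had 43.6 and 43.4 FPKM in WT and 14 and 14.2 in sgNAT10, against 68.1, 67.8 and 73.2 FPKM in WT and 62.6, 63.4 and 50.9 in sgMyc, with a difference of 1.31 (adjusted p = 0.000472). Its sgMyc effect of -0.24 passed only without replicate 3 (-0.14). Pawr, a pro-apoptotic factor, had effects of -0.98 and 0.13. Slc27a1, a fatty acid transporter, had -1.55 and 0.07 (0.44 without replicate 3), and Mindy1, a deubiquitinase, -1.29 and -0.16. Of 2462 members lower in sgNAT10 alone, 448 passed the test of the difference.

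Genes called in sgMyc whose sgNAT10 effect was under 0.2 in size are named next. Of these, Fbln2, Ets2 and Fam84b were also called in sgNAT10, as higher (limma adjusted p = 0.00518, 0.0217 and 0.0306). The core histone gene Hist1h3c had 7.39 and 6.14 FPKM in WT and 7.65 and 7.38 in sgNAT10, against 5.44, 5.92 and 6.16 FPKM in WT and 1.3, 1.06 and 1.47 in sgMyc. All sgMyc libraries lay below WT, and the difference was -1.73 (SE 0.14, limma adjusted p = 0.000144). Fosl1, an AP-1 subunit, had 93.2 and 98.8 FPKM in WT and 95.7 and 91.4 in sgNAT10, against 134, 119 and 134 FPKM in WT and 44.7, 45.7 and 80 in sgMyc, with a difference of -1.18 (adjusted p = 0.03). Fbln2, a fibulin of the matrix, had 44.8 and 45.7 FPKM in WT and 50.8 and 51.1 in sgNAT10, against 104, 104 and 119 FPKM in WT and 22, 22.7 and 43 in sgMyc. It rose by 0.17 in sgNAT10 and fell in sgMyc (-1.93), a difference of -2.10 (adjusted p = 0.00424). Ets2, a transcription factor, rose more in sgMyc (0.19 and 1.09; difference 0.89, adjusted p = 0.0158). Hs6st1, which sulphates heparan, had 6.69 and 7.05 FPKM in WT and 6.16 and 6.2 in sgNAT10, against 9.62, 9.41 and 9.26 FPKM in WT and 18.3, 19.6 and 13.4 in sgMyc, and a difference of 0.91 (adjusted p = 0.0107). Fam84b (0.17 and 1.21) and Cdc42ep5, an effector of CDC42 (-0.10 and 0.84), also had a larger effect in sgMyc.

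**Figure D5:**
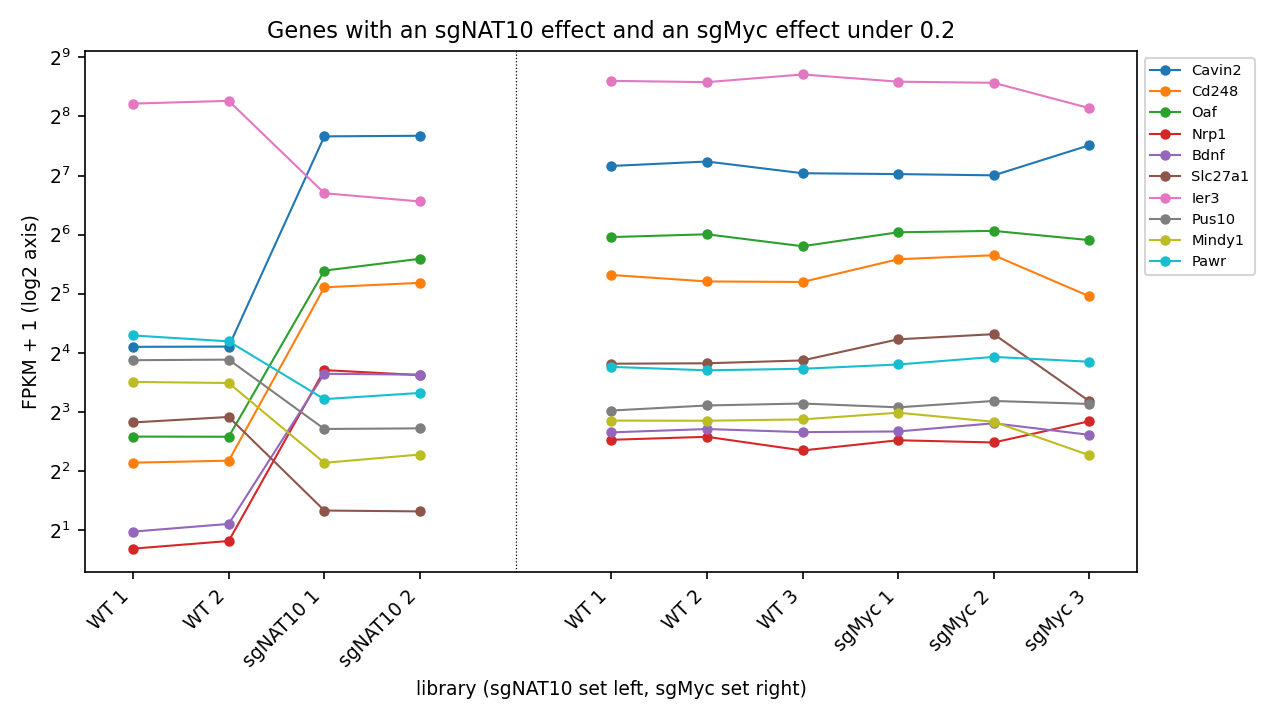
FPKM + 1 on a log2 axis (y) in the 10 mRNA libraries (x; sgNAT10 set left, sgMyc set right; lines join the libraries of 1 gene within a set) of 5 genes higher and 5 lower in sgNAT10, each with an sgMyc effect of 0.2 at most in size. The WT libraries of the sgMyc set lie nearer to the sgNAT10 libraries than to their WT for the 5 rising genes, for instance at a mean of 141 FPKM against 202 in sgNAT10 and 16.2 in its WT for Cavin2.

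Ribosome footprints of sgNAT10 gave a readout from other libraries (2 WT and 2 sgNAT10), and 9056 members were tested there. Among genes higher with both edits, the footprint effect was above 0 in 491 of 556 (88.3%), and among genes lower with both in 52 of 545 (9.54%). In genes that rose in sgNAT10 and fell in sgMyc it was above 0 in 75 of 97 (77.3%), and in those with the opposite pattern in 14 of 67 (20.9%). Members called in neither edit had 50.1%, and members called in sgMyc alone 47.5% (higher) and 40.9% (lower). The footprints thus followed the sgNAT10 mRNA direction in each opposite class. Examples were Ptgs2 (footprint effect 4.40, limma adjusted p = 0.00329), Grem1 (5.23, 0.000614) and Rnf213 (-1.45, 0.0482), and Bst2 had -0.66 without passing (0.203). Bgn, which was selected by its mRNA levels, had a footprint effect of -6.42, given as a description with no test. Fau, Rpl6 and Eef2 had footprint effects of -0.35, -0.22 and -0.30 that did not pass.

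Genes with a peak in the authors' deposited list of acetylated RNA regions were spread over the classes. A peak lay in 71 of 623 genes higher with both edits (11.4%), 37 of 602 lower with both (6.15%), 15 of 106 higher in sgNAT10 and lower in sgMyc (14.2%) and 7 of 73 with the opposite pattern (9.59%). The share was 10.1% among genes higher and among genes lower in sgNAT10 alone, 5.11% and 5.29% among those higher and lower in sgMyc alone and 6.72% among genes called in neither. Peaks came from 1 precipitated library per genotype so no test was made, and the part of an RNA's level in being called was not tested. Large subunit genes had peaks in 32 of 46 and small subunit genes in 23 of 33, against 901 of all 10265 members.

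Listed markers of other cell types were rare among the members. None of 9 T cell, 8 endothelial and 8 epithelial markers was a member, and of 10 macrophage markers Cd68 and Cd14 were. In bulk RNA, fewer cells of a type and less RNA per cell cannot be told apart. Of 11 fibroblast markers 7 were members, and they moved unlike each other. Vim, vimentin, had 248 and 255 FPKM in WT and 444 and 421 in sgNAT10, against 924, 909 and 918 FPKM in WT and 750.3, 744 and 673 in sgMyc, with opposite effects of 0.78 and -0.35. Col3a1, a fibrillar collagen, had 4.29 and 4.34 FPKM in WT and 3.18 and 3.66 in sgNAT10, against 26.7, 28 and 21.5 FPKM in WT and 229, 229 and 25.1 in sgMyc. In it replicate 3 lay inside the WT range, and the sgMyc effect of 2.09 missed the threshold (edgeR adjusted p = 0.0607; 3.13 without replicate 3). Pdgfra, a growth factor receptor, had an sgNAT10 effect of 2.19, and its sgMyc effect was 1.22 (edgeR adjusted p = 0.0613; 1.76 without replicate 3). These 3 genes were picked after their values were seen. Col1a2 had 12.7 and 13.5 FPKM in WT and 41.7 and 42.1 in sgNAT10, against 76.2, 76.2 and 69.1 FPKM in WT and 91.8, 92.6 and 71.4 in sgMyc, and a difference of -1.41 (limma adjusted p = 0.000736). Its sgMyc effect of 0.20 passed only without replicate 3 (0.32).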

How the data were processed

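Messenger RNA was sequenced in 2 sets of TC1 libraries, 10 in all. Per the file headers, the sgMyc table gives a raw count and an FPKM value per gene and library, and the sgNAT10 mRNA and Ribo-seq tables give FPKM, all computed by the authors. The acetylated RNA table was used only for which genes have a peak; its fold enrichment of precipitate over input is the authors' deposited value and enters no result here. The submitters' processing notes name the tools FastQC, Bowtie2, Trim Galore and featureCounts and the genome build mm10; which tool made which table is not given in the sources used here.

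Effects were computed on log2(FPKM + 1) within each table, for genes averaging 1 FPKM or more in both. The difference of the effects was tested in 1 limma 3.58.1 model (R 4.3.3, trend) of all 10 libraries with a term for the set, adjusted over 10265 genes. sgNAT10 was also tested with limma alone and sgMyc with edgeR 4.0.16 (quasi-likelihood, filterByExpr, TMM) on the deposited counts, so the sgMyc p-values belong to edgeR and the sgMyc effects to log2(FPKM + 1). The edgeR test covered 10256 of the members. Whole reads were recovered from ratios of FPKM between libraries in 99.98% of genes of the sgNAT10 table, for depth and for alternative tests. These are the smallest whole numbers that fit, so a depth from them may be too low. Scripts were tested on simulated data.

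The members, the 46 gene lists and the rules were chosen with earlier results of these data known. Genes were named by rule: the 4 genes of the title; the 6 largest smaller effects per class called in both sets; the 5 largest differences per edit acting alone (other effect under 0.2); and per list up to 3 by the size of a difference that passed and 2 called the same way. Libraries had to not overlap and levels to reach 5 FPKM for the classes and single edits. Pes1, Phb, Tsr1, mt-Nd3, Cd68, Cd14, Adar, Ifitm3, Vim, Col3a1, Pdgfra and Gapdh, and those of the 13 silent genes outside the rule, were chosen after their values were seen. Alternatives included DESeq2 1.42.0, other scalings, filters and pseudocounts, a replicate block and leaving out each library.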

Additional observations from a re-analysis of the deposited data

Results flagged for a closer look

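For Cdk2 the effect of the guide differed between the sets by a test of the difference itself. The difference of the sgMyc and sgNAT10 effects was -1.53 on log2(FPKM + 1), with a fall in both sets. Dnmt1 differed as well, by -1.18, with a rise in sgNAT10 and a fall in sgMyc. Among the genes of the title these 2 passed, and Myc and Nat10 did not. The WT levels of Cdk2 and Dnmt1 in the sgMyc set exceeded those in the sgNAT10 set by 2.07 and 1.71 on the log2 scale.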

How the results depend on the processing

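The 696 genes with the sgMyc effect above the sgNAT10 effect became 381 with a minimum mean of 5 FPKM and 1137 without a filter, and ranged from 319 to 2382 when 1 library was left out. The 1457 genes below ranged from 815 to 3741. Genes higher with both edits (623) became 374 at 5 FPKM, 976 with DESeq2 and 57 with an effect of at least 1 in both, and ranged from 112 to 1853. Genes lower with both (602) became 352 at 5 FPKM and 78 with an effect of at least 1, and ranged from 208 to 1824. Those higher in sgNAT10 and lower in sgMyc (106) became 70 without the edgeR filter and 5 with an effect of at least 1, and ranged from 27 to 695. The opposite class (73) became 44 at 5 FPKM, 47 with limma in both sets, 119 with DESeq2 and 5 with an effect of at least 1, and ranged from 5 to 444. In each range the highest count came without sgMyc replicate 3; the counts called in both sets were lowest without 1 of the WT libraries of the sgMyc set, and those of the difference without 1 library of the sgNAT10 set. The correlation of the effects (0.52) was 0.57 with a pseudocount of 0.1, 0.44 without a filter and 0.46 to 0.54 without 1 library. With edgeR on counts and recovered reads, 917 genes lay above and 1177 below. No scaling moved the median effect of all genes by over 0.1.

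With a replicate block, the counts were 346 above and 910 below for the difference, 217 and 250 for genes higher and lower with both edits, and 39 and 9 for the opposite classes. The labels give the libraries only shared numbers, and same-numbered libraries did not deviate together (correlations of -0.015 in the sgNAT10 set and -0.0085 to 0.0040 in the sgMyc set), so the block was not used.

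Of the named genes 92 passed the test of the difference, which was a condition for naming many of them. With the block 79 still passed, with either WT library of the sgNAT10 set left out 61, and without sgMyc replicate 3 all 92. Passes rose over all members without replicate 3, so the last count is no check. Some of the 92, such as Rgs16 and Sod3, are genes given above with no test. Leaving out 1 library gave differences of -0.26 to 0.19 in Nfe2l2, -0.16 to 0.36 in Phb and -0.34 to 0.21 in Tsr1, with a turned direction only without replicate 3. Directions also turned with edgeR on counts and recovered reads in Sulf2 (-0.17) and Rps6ka6 (-1.19). Depth was lowest in the sgNAT10 set, at 12335289 to 16133476 recovered reads per library. After quantile normalization the median difference of glycolysis (-0.02) became 0.11, that of translation factors 0.03 and the sgNAT10 medians of the proteasome and of protein folding in the endoplasmic reticulum came to -0.05 and 0.00.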
